A study of Mus musculus with 4 samples.

Results

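Pmepa1 and 9 other negative regulators of SMAD signalling, Smad6, Smad7, Ski, Skil, Smurf1, Smurf2, Bambi, Tgif1 and Nedd4l, were followed in MC38 cells, a mouse colon cancer line, after editing of Cbfb. Members were found by gene symbol, and all 10 were present among the 26322 genes listed. Pmepa1 was selected on its measured difference between the groups in these same libraries, and the other 9 were listed by function with earlier results of these data known, so their differences are given as a description, without p-values. The WT cells had been electroporated with Cas9 and a non-targeting guide, and the CbfbKO cells with Cas9 and a guide against Cbfb, whose protein is the partner of the RUNX transcription factors. RNA was taken at least 1 week later, and 2 WT and 2 CbfbKO libraries were made with a 3′ mRNA kit, which tags the end of each transcript. Loss of the protein was checked on a western blot by the submitters, and a further replicate of each group was dropped for poor RNA before sequencing. All CbfbKO cells carried the same guide, whether they were a pool or a clone is not given in the sources used here, and the labels do not say that libraries of a group came from separate cultures, so the spread between replicates may be technical.

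Ligands of the TGF-β and BMP family bind pairs of receptor kinases that phosphorylate SMAD transducers, and these enter the nucleus with Smad4 and bind DNA. The pathway limits itself through proteins that act at each of these steps. Several of the genes for them, among them Smad6, Smad7, Skil, Bambi and Pmepa1, are themselves induced by the pathway in many cells. Bambi is a receptor without a kinase domain, Smad6 and Smad7 are inhibitory SMADs that occupy receptors and recruit ubiquitin ligases, and Smurf1, Smurf2 and Nedd4l are such ligases. Pmepa1 is a membrane protein that holds receptor-activated SMADs away from the receptor, while Ski, Skil and Tgif1 are nuclear corepressors.

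The ligases of this group bind proteins through WW domains, whose partner is the PY motif, a run of proline, proline, any residue and tyrosine. Pmepa1 carries such motifs beside a motif through which it binds SMADs, and the Smad6 protein holds 2 matches to the PY letters, so the codons for these motifs are shown here. Sequences are from GENCODE M21 transcripts of GRCm38, read 5′ to 3′ along the coding strand, with the codons of the motif in capitals. In Pmepa1 all 3 lie in the last coding exon, exon 4 of Pmepa1-201, on the minus strand.
Pmepa1, first PY motif, residues 150 to 153, chr2:173228173-173228214: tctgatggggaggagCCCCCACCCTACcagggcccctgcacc
Pmepa1, SMAD interaction motif, residues 178 to 181, chr2:173228089-173228130: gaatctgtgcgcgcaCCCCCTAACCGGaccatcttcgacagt
Pmepa1, PY motif nearer the end of the protein, residues 221 to 224, chr2:173227960-173228001: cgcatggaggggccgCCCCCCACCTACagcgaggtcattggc
Smad6, first PY match, residues 277 to 280, across the junction of exons 1 and 2 of Smad6-201 on the minus strand of chromosome 9, between 64012237 and 64020211: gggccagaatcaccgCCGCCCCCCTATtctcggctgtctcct
Smad6, PY match nearer the end of the protein, residues 432 to 435, exon 4, chr9:63953692-63953733: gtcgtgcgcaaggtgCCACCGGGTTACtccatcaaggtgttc

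Since several members are known targets of the pathway, their promoters, 250 bases before to 50 after the start, were searched for the letters that SMAD and RUNX proteins bind. No promoter of Pmepa1, Smad7, Skil, Bambi or Nedd4l was available, so theirs were not searched. The RefSeq promoter table of GRCm38.p6 held promoters of Smad6, Ski, Smurf1, Smurf2 and Tgif1. Of these, the promoter of Smad6 alone held the palindrome GTCTAGAC, a letter sequence that SMAD proteins bind, which 0.213% of all 32851 promoters of the same length hold. It straddles the annotated start and is shown in capitals in the stretch from 100 bases before the start to 30 after it.
Smad6 promoter, minus strand, chr9:64022030-64022159: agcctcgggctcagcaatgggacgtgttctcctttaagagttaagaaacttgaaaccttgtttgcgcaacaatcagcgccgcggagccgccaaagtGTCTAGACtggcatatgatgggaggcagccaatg

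The shorter SMAD letters CAGAC, searched on both strands, were in at least 1 promoter of Smurf1, Smurf2 and Tgif1 and in none of the Smad6 and Ski windows, while 49.6% of all promoters hold them. The RUNX letters TGTGGT, also searched on both strands, were in none of the windows of these 5 genes and in 16.8% of all promoters. A match is a description of the letters and not evidence of binding.

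Cbfb itself was lower in CbfbKO cells, with 295 and 285 reads in the WT libraries and 125 and 125 in the CbfbKO libraries, which on the log2 scale is -1.27 with a standard error of 0.12 (limma, adjusted p = 1.76e-07) and checks the labels. Libraries held between 3189035 and 3907936 reads counted on genes, so that 1 read was worth 0.256 to 0.314 CPM (reads of a gene scaled to a common library total). Values of the members are on the deposited scale, log2 of CPM with a small prior count added. The line is labelled colorectal cancer, but of 10 intestinal epithelial marker genes 4 (Krt18, Vil1, Muc2 and Lgals4) had 0 reads in every library. Reads of this epithelial list summed to 1.77 to 1.80 CPM in WT and 1.57 to 1.79 CPM in CbfbKO cells. A mesenchymal list of 8 genes summed to 2481 to 2624.5 CPM in WT and 2235 to 2339 CPM in CbfbKO cells, mostly from Vim, with Thy1 at 0 reads. Vim was at -0.18 and the other 5 tested genes of that list were each above 0, from Fn1 at 0.10 and Pdgfra at 0.53 to Pdgfrb at 0.82. Of the 6 tested, 0 passed in limma and 2, Vim and Pdgfra, in voom, with 2 at an unadjusted p under 0.05. Of 6 blood cell markers 5 had 0 reads in every library, and Ptprc had 1 read in 1 WT library.

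All 10 members passed the minimum of 0 on the log2 CPM scale in at least 2 libraries, and 12207 genes in all were tested. Pmepa1 stood about 3-fold higher in CbfbKO cells, Smad7 stood at about 52.0% of its WT level, and the other 8 members differed by between -0.46 and 0.28 on the log2 scale. Of the members, 1 was past an adjusted p of 0.05 and higher (Pmepa1) and 1 was past it and lower (Smad7). Over all tested genes 2.83% were past it, 1.57% higher and 1.25% lower. Since this contrast chose Pmepa1 and was known when the others were listed, nothing is read from the members' counts. The members' median difference was 0.15, against 0.039 for all tested genes. In these bulk libraries fewer cells of a kind and less RNA per cell cannot be told apart.

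**Figure D1:**
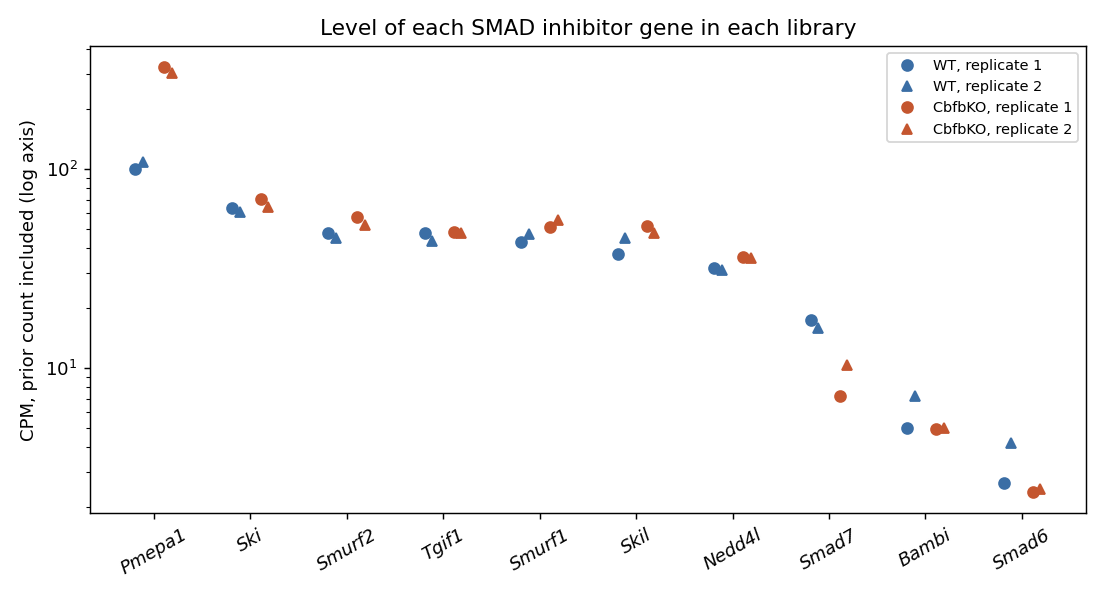
Level of the 10 members in each library, in CPM on a log axis, with WT libraries in blue, CbfbKO libraries in orange, circles for replicate 1 and triangles for replicate 2. Pmepa1 lies at 100.4 and 107.9 CPM in WT and at 326 and 305 CPM in CbfbKO libraries, and Smad7 is the member with the largest gap in the other direction.

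Pmepa1 lies on the minus strand of chromosome 2 of GRCm38, from 173224458 to 173276533. Its level was 100.4 and 107.9 CPM in the WT libraries and 326 and 305 CPM in the CbfbKO libraries, from 339 and 358 reads against 1270 and 970. Both CbfbKO libraries were far above both WT libraries, and the libraries of a group lay close together. On the log2 scale the level was 6.70 ± 0.074 (SD, n = 2) in WT and 8.30 ± 0.067 (SD, n = 2) in CbfbKO cells, a difference of 1.60 with a standard error of 0.078 and a 95% interval from 1.44 to 1.76. Pmepa1 made up 25.5% and 26.7% of all members' reads in the WT libraries and 50.0% and 49.1% in the CbfbKO libraries. The 10 members summed to 391 and 402 CPM in the WT libraries and to 650.0 and 619.6 CPM in the CbfbKO libraries. Without either CbfbKO library 0 of all tested genes were past the threshold, Cbfb and every other gene called here included, with 1104 and 1169 genes at an unadjusted p under 0.05. Of the 6 tested genes within 500 kb of Pmepa1, 0 were past the threshold in limma and 0 in voom, with 1 at an unadjusted p under 0.05, and their median difference was -0.0072.

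Of the inhibitory SMADs, Smad7 stood lower in CbfbKO cells and Smad6 could not be placed at its depth. Smad7, on the plus strand of chromosome 18 from 75367529 to 75395935, blocks both TGF-β and BMP receptors. Its level was 17.4 and 15.9 CPM in the WT libraries and 7.23 and 10.3 CPM in the CbfbKO libraries. Both CbfbKO libraries were below both WT libraries, and they differed more from each other than the WT libraries did. The reads behind these levels were 57 and 51 in WT and 26 and 31 in CbfbKO, so the counting error is large. On the log2 scale Smad7 was at 4.05 ± 0.092 (SD, n = 2) in WT and 3.11 ± 0.36 (SD, n = 2) in CbfbKO cells, a difference of -0.94 with a standard error of 0.25 and a 95% interval from -1.47 to -0.42. Its place past the threshold was lost with any 1 of the 4 libraries left out, when its difference lay between -1.20 and -0.69, and with quantile normalization. Of the 7 tested genes within 500 kb of Smad7, 0 were past the threshold in limma and 0 in voom, with 0 at an unadjusted p under 0.05. Pmepa1 and Smad7, both membrane-proximal brakes on the SMADs, thus differed in opposite directions: for each Smad7 read there were 5.95 and 7.02 Pmepa1 reads in the WT libraries, and 48.8 and 31.3 in the CbfbKO libraries.

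Smad6, the inhibitor with a preference for BMP receptors, lies on the minus strand of chromosome 9 from 63953076 to 64022059 and was barely detected. It had 7 and 12 reads in the WT libraries and 7 and 6 in the CbfbKO libraries. The CbfbKO libraries were only just below the lower WT library, and the difference of -0.46 had a 95% interval from -1.34 to 0.42, so a change of either sign was not detectable at this depth. It moved to -0.79 without WT replicate 1 and to -0.13 without WT replicate 2.

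Bambi, the receptor-like brake at the membrane, lies on chromosome 18 from 3507923 to 3516404. It had 15 and 22 reads in the WT libraries and 17 and 14 in the CbfbKO libraries. On the CPM scale the CbfbKO libraries, at 4.93 and 4.97, lay just below the lower WT library at 4.995 and further below the other at 7.17. The difference of -0.27 had a 95% interval from -0.99 to 0.44, and came to -0.54 without WT replicate 1 and -0.014 without WT replicate 2.

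The ubiquitin ligases were each expressed at a moderate level, and none was past the threshold. Smurf1, on chromosome 5 from 144876495 to 144965847, was at 43.0 and 47.4 CPM in the WT libraries and at 51.2 and 55.1 CPM in the CbfbKO libraries. Smurf2, on chromosome 11 from 106820066 to 106920715, was at 47.7 and 45.0 CPM in WT and 57.1 and 52.0 CPM in CbfbKO. The differences were close to each other, 0.24 with an interval from -0.020 to 0.49 for Smurf1 and 0.24 with an interval from -0.017 to 0.49 for Smurf2. Nedd4l, a relative of these ligases on chromosome 18 from 64887705 to 65217828, was at 31.8 and 31.2 CPM in WT and 36.1 and 35.7 CPM in CbfbKO. Its libraries lay close together within each group, with SDs of 0.020 and 0.013 on the log2 scale, and its difference was 0.19 (95% interval -0.11 to 0.49). For all 3 ligases the groups did not overlap, but each interval included 0. Antisense genes overlap Nedd4l in the annotation, and the sources used here do not say whether counting used strand, so reads of the opposite strand could be counted in its level.

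The nuclear corepressors were not past the threshold, and the intervals of Ski and Tgif1 included 0. Ski, which with its relative Skil holds SMAD complexes at DNA in a repressed state, lies on chromosome 4 from 155154075 to 155222592. It was at 63.9 and 61.1 CPM in the WT libraries and 70.9 and 64.5 CPM in the CbfbKO libraries, a difference of 0.11 (95% interval -0.11 to 0.34), or 0.047 without CbfbKO replicate 1 and 0.18 without CbfbKO replicate 2. Skil, on chromosome 3 from 31095058 to 31122577, was at 37.4 and 45.0 CPM in WT and 51.8 and 47.9 CPM in CbfbKO. After Pmepa1 it had the highest difference of the members, 0.28, and a 95% interval from 0.0063 to 0.56 that only just left out 0. Leaving out 0 amounts to an unadjusted p under 0.05 from limma, which 1820 of the 12207 tested genes had. The SD of its WT libraries was 0.19, and the difference ranged from 0.15 to 0.41 with 1 library left out. Tgif1, a homeodomain corepressor on chromosome 17 from 70844205 to 70853546, was at 47.4 and 43.5 CPM in WT and 48.4 and 47.6 CPM in CbfbKO, a difference of 0.082 (95% interval -0.18 to 0.34), which ranged from 0.019 without WT replicate 2 to 0.14 without WT replicate 1.

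**Figure D2:**
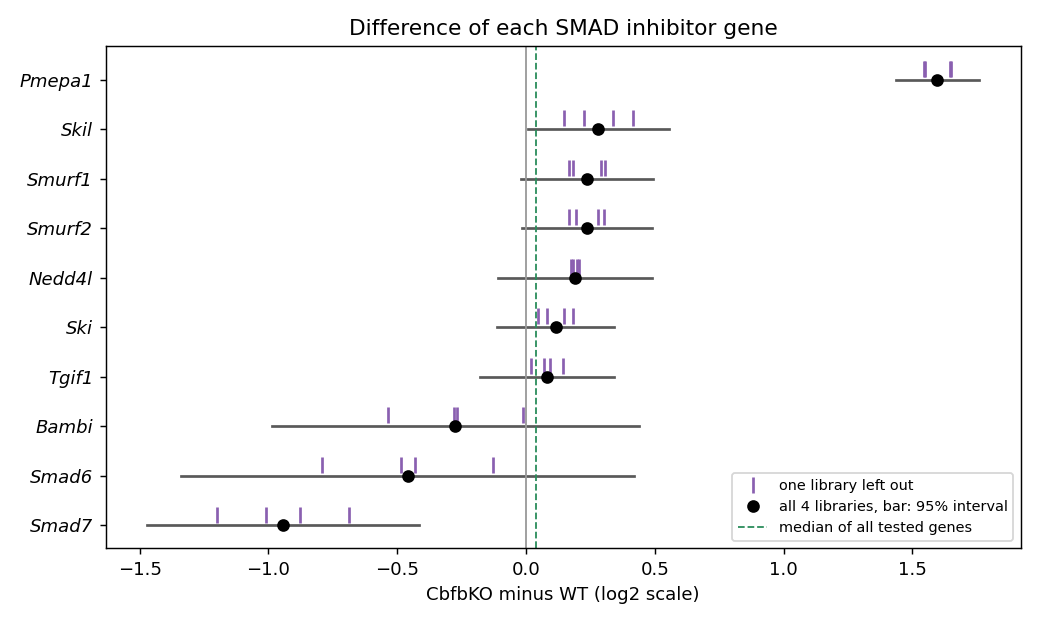
Difference of each member between CbfbKO and WT on the log2 scale, with its 95% interval as a bar, the values with 1 library left out as ticks, and the median of all tested genes (0.039) as a dashed line. Pmepa1 at 1.60 and Smad7 at -0.94 stand apart from the other members, most of whose intervals include 0.

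In 7 members both CbfbKO libraries were above both WT libraries and in 3, Smad6, Smad7 and Bambi, both were below. Among all tested genes 27.4% had both CbfbKO libraries above and 16.8% had both below, so a lack of overlap with 2 libraries in each group is common. The 3 lower members were also the 3 with the fewest reads.

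The order of levels was much the same in the groups. Because the assay tags each transcript at its end, CPM was compared between genes without dividing by length. In WT cells the order from the highest was Pmepa1, Ski, Smurf2, Tgif1, Smurf1, Skil, Nedd4l, Smad7, Bambi and Smad6. Smurf2, Tgif1, Smurf1 and Skil could not be told apart by the spread of their WT libraries, whose values lay between 37.4 and 47.7 CPM. Pmepa1 and Ski were above them, and Nedd4l, Smad7, Bambi and Smad6 were below, with no overlap between neighbours. In CbfbKO cells Smurf2 and Smurf1 overlapped, as did Smurf1 and Skil and, in turn, Skil and Tgif1.

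The genes whose 4 values, centred on each gene's own mean, lay nearest to those of Pmepa1 were Egln3, Gm1673, Mmp9, Tnnt2 and H2-Q7, among 6892 genes with a mean of at least 4 on the log2 CPM scale. Their distances over the 4 libraries were 0.21, 0.32, 0.33, 0.41 and 0.42 on the log2 scale. Egln3, an oxygen-sensing prolyl hydroxylase, went from 48 and 48 reads in WT to 151 and 133 in CbfbKO libraries, and Mmp9, a secreted gelatinase, from 39 and 31 to 122 and 86. H2-Q7 belongs to a family of near-identical genes between which counting could have split reads.

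The other genes of the pathway were taken from lists of 112 genes, of which 80 were tested. Of these, 5 rose and 6 fell (13.8%, against 2.83% of all tested genes), with a median difference of 0.079. Over all 12207 tested genes 1820 had an unadjusted p under 0.05 from limma, the share to set beside such counts in the lists. The lists describe the surroundings of the members and were drawn up with earlier results known.

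Among 7 tested ligand genes 1 fell and 0 rose. Bmp2, a BMP ligand, had 73 and 66 reads in the WT libraries and 17 and 13 in the CbfbKO libraries, which is -2.15 with a standard error of 0.26 (limma, adjusted p = 8.24e-06). Inhba, which encodes the activin A subunit, was at 0.37 with an adjusted p of 0.054 from limma, with 212 and 239 reads against 335 and 280. With voom on library totals Inhba was past the threshold, and 1 ligand gene was higher. Tgfb1 had at most 3 reads in any library, and Tgfb2 and Tgfb3, at 0.61 and 0.51, were not past the threshold. Among 7 tested extracellular antagonists 1 fell and 0 rose. Grem1, which binds BMPs and keeps them from their receptors, had 33 and 42 reads in WT and 1 and 4 in CbfbKO, which is -3.24 with a standard error of 0.42 (limma, adjusted p = 1.68e-05), and this size is poorly determined at so few reads. With quantile normalization Grem1 was not past the threshold, at -3.32. A BMP ligand and a BMP antagonist were thus both lower in CbfbKO cells.

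Of 9 tested receptor genes 0 passed in limma and 0 in voom, with 2 at an unadjusted p under 0.05, and their median difference was 0.23. The most abundant were Bmpr1a at 0.23 (standard error 0.13) and Acvr1 at 0.063 (standard error 0.16). Of the 6 SMAD transducers 0 passed in limma and 0 in voom, with 2 at an unadjusted p under 0.05, and differences from -0.15 (Smad9) to 0.37 (Smad3). Smad4, the shared partner, was at 0.087 (standard error 0.11) and Smad5 at 0.23 (standard error 0.11). Of 19 further intracellular regulators 1 fell and 0 rose. It was Rnf11, a small adaptor with a PY motif that binds Smurf ligases, which fell by 0.58 with a standard error of 0.13 (limma, adjusted p = 0.0123), but from 210 and 193 reads to 176 and 113, and was not past the threshold with any 1 library left out or with quantile normalization. In voom on library totals 2 of these regulators passed, Rnf11 and Dab2. Dab2 was at -0.47 (adjusted p = 0.051 from limma), with 171 and 160 reads in WT and 140 and 111 in CbfbKO libraries. Ldlrad4, the closest relative of Pmepa1, had 14 and 16 reads in WT and 9 and 7 in CbfbKO libraries, a difference of -0.83 with an adjusted p of 0.300 from limma.

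Of 22 tested TGF-β response genes 3 rose and 2 fell. Adam19, a membrane metalloprotease, rose by 2.01 (adjusted p = 5.55e-05 from limma) on 13 and 12 reads against 68 and 51. The cell cycle inhibitor Cdkn1a rose by 0.54 (adjusted p = 0.00146) and the protease inhibitor Timp1 by 0.48 (adjusted p = 0.0131), both from limma. Col3a1, a fibrillar collagen, fell by 0.90 on the log2 scale (adjusted p = 2.46e-06 from limma), and Tpm1, a tropomyosin, fell by 0.67 (adjusted p = 1.61e-08 from limma). The other 17 did not pass in limma, among them Junb at 0.13 and Snai1 at -0.18, and the list's median was 0.12. In voom on library totals 7 of the list passed. Tgm2, at 0.72 (adjusted p = 0.0545 from limma), and Snai2, at -1.16 (adjusted p = 0.0548 from limma), were past the threshold there. Snai2 had 28 and 38 reads in WT and 20 and 10 in CbfbKO libraries. Timp1 was not past the threshold without WT replicate 2, at 0.32. With quantile normalization neither Cdkn1a, at 0.52, nor Timp1, at 0.46, was past it, and 1 of the list was higher.

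Of 10 tested BMP response genes 2 rose and 1 fell, with a median of 0.048. Id1, an inhibitor of helix-loop-helix factors, rose by 0.43 with a standard error of 0.081 (limma, adjusted p = 0.00201), from 428 and 422 reads to 643 and 562, and Id2 of the same family fell by 0.66 with a standard error of 0.15 (limma, adjusted p = 0.0147). Id3 was at 0.13 and did not pass (adjusted p = 0.504 from limma). Gata3 rose by 0.83 (adjusted p = 0.0281 from limma) on 39 and 56 reads against 90 and 87. Gata3 was not past the threshold without WT replicate 1, at 0.56, nor was Id2 without either WT library, at -0.62 and -0.70. With quantile normalization 0 of these genes were past the threshold in either direction, with Id1 at 0.41, Id2 at -0.70 and Gata3 at 0.79.

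**Figure D3:**
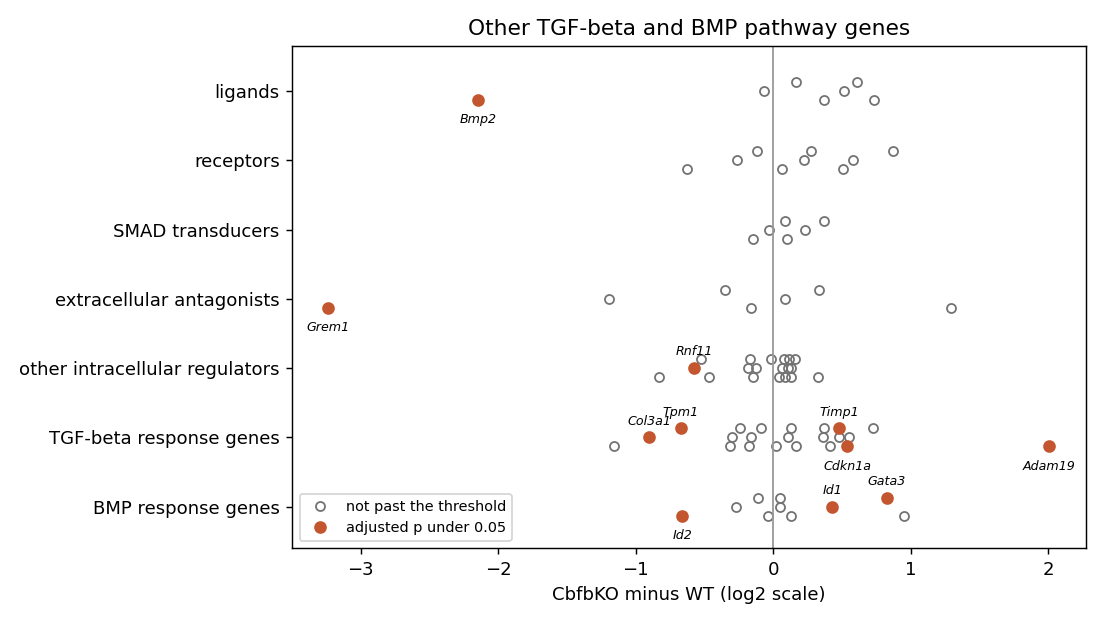
Difference between CbfbKO and WT on the log2 scale for the 80 tested genes of the pathway lists, each point a gene, filled where the adjusted p from limma was under 0.05. The 11 filled points lie on both sides of 0, from Grem1 at -3.24 to Adam19 at 2.01, and no receptor or SMAD transducer is filled.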

How the data were processed

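The study's methods give trimming with cutadapt 1.9, alignment to mm10 with HISAT2 2.1.0, and counting per gene with featureCounts (2.0.1 in the submitters' processing notes, while the methods name an earlier version, and which was used is not settled here). Annotation, strand and multimapping settings are not given in the sources used here. The authors deposited log2 CPM values. They imply a mean prior count of 2, scaled by library total, before the log, and with it at least 99.99% of the values over the lowest one gave a number of reads within 0.1 of a whole one. Reads quoted here are these recovered reads. The study names voom with limma, which takes counts. Here limma 3.58.1 in R 4.3.3, with a mean-variance trend, was run on the deposited log2 values of the 12207 genes that reached 0 in 2 or more libraries (a two-sided test, Benjamini-Hochberg over all of them, threshold 0.05), and was tested on simulated data. The smallest p of an exact permutation test on 2 against 2 libraries is 0.333. Replicates differed by more than counting noise (chi-square per degree of freedom 1.58 and 2.15). Alternatives were voom on recovered reads, other scalings, filters and thresholds, no trend, a replicate block and each library left out. The members and lists were chosen with earlier results of these data known. A gene of the pathway lists is not reported here and is left out of their counts. The genes named are the members, Cbfb, the list genes past the threshold (up to 4 in each direction) and the 5 genes nearest Pmepa1. Where none of a list passed, its 2 most abundant genes are named. Chosen after their values were seen were Inhba, Tgfb1, Tgfb2, Tgfb3, Smad3, Smad9, Ldlrad4, Dab2, Junb, Snai1, Snai2, Tgm2, Id3, Vim, Fn1, Pdgfra and Pdgfrb. So were the cell type markers at 0 or 1 read (Krt18, Vil1, Muc2, Lgals4, Thy1 and Ptprc). Positions are from GENCODE M21 (GRCm38). Python 3.11.15 and matplotlib 3.10.9 were used for sequences and figures.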

Additional observations from a re-analysis of the deposited data

How the results depend on the processing

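Pmepa1 stayed between 1.55 and 1.65 on the log2 scale under 9 alternatives, and no member changed sign under them. Nedd4l ranged from 0.16 to 0.21. Depth limits Smad6, Bambi and Smad7 most. Why other settings, a library left out included, changed the counts was not tested. Only the stricter threshold leaves fewer calls by construction.

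Against 192 higher and 153 lower genes over the table, there were 39 and 44 with quantile normalization, 2 and 53 with no low-value filter, 0 and 0 without the trend (1461 at an unadjusted p under 0.05), 103 and 97 at an adjusted p under 0.01, and 300 higher with a minimum of 5 CPM. With the replicate block 320 were higher and 535 passed in all. Deviations of libraries with the same number had a correlation of -0.0042 across the tested genes. It takes in genes with few reads, where counting noise is large, so whether such libraries were handled together is not settled. With 1 library left out, 0 to 115 were higher and 0 to 86 lower; without either CbfbKO library 0 passed (1104 and 1169 at an unadjusted p under 0.05). Against 5 higher and 6 lower genes of the pathway lists, there were 1 and 3 with quantile normalization, 0 and 0 with no filter or without the trend, 3 higher at an adjusted p under 0.01, and 0 to 4 and 0 to 4 with 1 library left out. Of the members, 0 were past the threshold without the trend, without the filter, or without either CbfbKO library. With 1 library left out 0 to 1 members were past it and higher, a count that restates how Pmepa1 was chosen. Smad7 was the only lower member, and 0 were lower with quantile normalization, at 0.01 or with any 1 library left out (0 to 0).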
